A study of Homo sapiens with 8 samples.

Results

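The effect of ACBI-1 that DND-41 and MOLT-4 cells have in common was measured here in all 8 RNA-seq libraries of the study, compared as 4 ACBI-1 libraries with 4 DMSO libraries, with the cell line as a block. DND-41 and MOLT-4 are established cell lines grown from patients with acute leukaemia of T-cell precursors (T-ALL). Cells of each line were given ACBI-1 at 100 nM or its solvent DMSO, and RNA was taken after 8 h. The 4 groups, DND-41 with DMSO, DND-41 with ACBI-1, MOLT-4 with DMSO and MOLT-4 with ACBI-1, held 2 libraries each. No genotype change, transgene or other agent was labelled in any group. The count tables of both lines list the same 63677 gene IDs, and 11490 of them had a mean of at least 1 CPM (the count scaled to a fixed library total) in both lines, so that a shared effect could be asked of them. A further 986 genes reached that level in DND-41 alone and 1083 in MOLT-4 alone, and these were left out. At the edge of the filter, CD248 stayed in with 1.001 CPM in DND-41 and CCDC102B dropped out with 0.991 CPM in MOLT-4.

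ACBI-1 is a degrader. One end of the molecule binds a bromodomain found in SMARCA2, in SMARCA4 and in PBRM1, and the other end recruits the ubiquitin ligase VHL, so that the bound protein is tagged for the proteasome. Each BAF (SWI/SNF) complex carries either SMARCA2 or SMARCA4 as its motor. These complexes slide and eject nucleosomes and keep enhancers and promoters open, and PBRM1 belongs to the PBAF form of the complex. In T-ALL cells, factors such as NOTCH1, RUNX1 and MYB act from distal enhancers on genes such as MYC. RNA and not protein was measured, so the loss of the target proteins themselves is outside these data.

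Library totals lay between 19860759 and 20239888 counts, and 3 counts corresponded to about 0.15 CPM. Replicate libraries correlated at 0.9952 to 0.9967 (Pearson r of log2 CPM across genes). The share of counts from mitochondrially encoded genes was 12.1% and 13.2% in the DND-41 DMSO libraries, 15.5% and 11.8% with ACBI-1, 19% and 14.4% in the MOLT-4 DMSO libraries and 21.3% and 24.6% with ACBI-1. Its part in the results was not tested, but with these genes removed before scaling the shared test called 2621 rises and 2917 falls, against the 2595 and 2856 given below. That fit tested 11763 genes, against 11490 in the main fit. Of the 5446 main calls tested in it, 5427 were called again in the same direction. T-lineage marker RNA was abundant everywhere, at a summed 6570 to 8480 CPM over 16 markers. The 11 B-lineage markers summed to 2150 and 2140 CPM in DND-41 with DMSO and to 1230 and 1290 CPM with ACBI-1, and to 258 and 266 CPM and 105 and 102 CPM in MOLT-4, and the part of this in the results was not tested. The 14 erythroid and megakaryocyte markers summed to between 10.9 and 13.5 CPM, most of it EPOR. The 14 myeloid markers summed to at most 0.797 CPM, and the B-lineage genes PAX5, MS4A1 and CD22 had no count in any library. The 14 stromal and epithelial markers summed to 77.6 CPM in the second MOLT-4 DMSO library against 5.35 in the first, and to 17 CPM in the second MOLT-4 ACBI-1 library against 1.47 in the first, with EPCAM at 0 throughout. In DND-41 the same sum was 52.2 and 54.6 CPM with DMSO and 9.65 and 12.7 CPM with ACBI-1. The part of this stromal RNA in the results was not tested, but each count that leads a result below was also computed without both second MOLT-4 libraries. Whether the libraries of a group were separate cultures is not labelled, and the p-values reflect library-to-library spread that could be technical. In the shared test this spread also takes in differences of the effect between the lines. The common dispersion of edgeR was 0.00642 in that fit, against 0.00223 in the fit of 4 group means.

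The sequences just upstream of 5 genes on which the results turn are shown first, 2 large shared rises (BSN and ZNF341), a sterol gene that rose (MVD) and 2 large shared falls (CD82 and RASSF2). Each is the 250 bases before the RefSeq transcription start on GRCh38.p14, 5′ to 3′ on the gene's own strand. BSN lies at chr3:49554227-49554476 (plus strand), ZNF341 at chr20:33731746-33731995 (plus strand), MVD at chr16:88663092-88663341 (minus strand), CD82 at chr11:44565413-44565662 (plus strand) and RASSF2 at chr20:4815148-4815397 (minus strand). Capitals mark matches, on either strand, to any of 12 short motifs. The RUNX motif was TGTGGT, the motif of ETS factors was CCGGAAG, that of RBPJ was TGGGAA and that of AP-1 was TGANTCA. The cyclic AMP element was TGACGTCA, the E-box was CACGTG, the CCAAT box was CCAAT and the GC box was GGGCGG. The TATA motif was TATAAA, the GATA motif was AGATAA and the sterol regulatory element was TCACNCCAC. NRF1 sites were searched as the palindromic consensus of that factor.
BSN: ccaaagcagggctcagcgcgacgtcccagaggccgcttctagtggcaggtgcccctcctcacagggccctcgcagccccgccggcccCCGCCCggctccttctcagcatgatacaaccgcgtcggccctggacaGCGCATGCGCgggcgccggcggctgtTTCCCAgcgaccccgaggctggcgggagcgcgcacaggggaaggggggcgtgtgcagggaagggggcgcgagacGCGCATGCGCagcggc
ZNF341: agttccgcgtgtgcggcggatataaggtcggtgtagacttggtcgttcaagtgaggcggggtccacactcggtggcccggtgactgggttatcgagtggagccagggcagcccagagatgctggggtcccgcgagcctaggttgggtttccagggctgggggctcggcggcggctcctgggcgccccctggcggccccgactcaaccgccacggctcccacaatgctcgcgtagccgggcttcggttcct
MVD: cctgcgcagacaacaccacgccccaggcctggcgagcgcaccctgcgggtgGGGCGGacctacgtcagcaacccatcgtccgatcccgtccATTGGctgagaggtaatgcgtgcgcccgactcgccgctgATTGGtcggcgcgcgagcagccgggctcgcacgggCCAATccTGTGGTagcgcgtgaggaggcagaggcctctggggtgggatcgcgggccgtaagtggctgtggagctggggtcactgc
CD82: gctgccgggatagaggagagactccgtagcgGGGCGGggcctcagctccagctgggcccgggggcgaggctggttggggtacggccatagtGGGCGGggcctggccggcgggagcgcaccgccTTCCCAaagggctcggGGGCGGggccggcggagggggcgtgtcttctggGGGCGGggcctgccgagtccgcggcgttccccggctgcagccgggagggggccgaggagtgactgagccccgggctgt
RASSF2: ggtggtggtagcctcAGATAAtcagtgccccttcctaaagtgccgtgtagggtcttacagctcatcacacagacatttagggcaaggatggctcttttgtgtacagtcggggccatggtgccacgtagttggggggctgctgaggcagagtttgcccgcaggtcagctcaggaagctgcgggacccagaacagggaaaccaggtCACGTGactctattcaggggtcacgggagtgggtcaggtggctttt
The BSN window held 2 NRF1 matches, a GC box and an RBPJ match, and the ZNF341 window held none of the 12 motifs. The MVD window held 3 CCAAT matches, a GC box and a RUNX match. The CD82 window held 4 GC boxes and an RBPJ match. The RASSF2 window held a GATA match and an E-box and was poor in CpG, with an observed over expected CpG ratio of 0.361 against 0.746 to 0.898 in the other 4. These matches are descriptions of letters and not of bound factors, and no motif marked here overlapped another.

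RNA of the 3 proteins that ACBI-1 targets was examined first. SMARCA4 was at 461 and 459.8 CPM in the DND-41 DMSO libraries and at 568 and 589.9 CPM with ACBI-1, and in MOLT-4 at 696 and 733 CPM with DMSO and at 808 and 807 CPM with ACBI-1. Treated libraries lay above their own DMSO libraries in both lines, and the shared log2 fold change was 0.25 ± 0.05 (SE from edgeR, all log2 fold changes below likewise, adjusted p = 0.00208). SMARCA2 was at 63.5 and 69.5 CPM (DND-41 DMSO), 54.8 and 60.9 CPM (DND-41 ACBI-1), 24.4 and 26.3 CPM (MOLT-4 DMSO) and 27 and 28.4 CPM (MOLT-4 ACBI-1), a shared log2 fold change of -0.05 ± 0.08 (adjusted p = 0.616). In the single lines SMARCA2 fell in DND-41 (-0.20, adjusted p = 0.0200) and stood at 0.12 in MOLT-4 (adjusted p = 0.231), with a difference of 0.33 that passed the test (adjusted p = 0.0401). With DESeq2 neither the DND-41 fall (adjusted p = 0.0637) nor the difference (adjusted p = 0.105) passed. Nor did they with library totals alone as the scaling in edgeR (adjusted p = 0.1 and 0.231). The DND-41 call was lost without the second DND-41 DMSO library (adjusted p = 0.243) or the first DND-41 ACBI-1 library (adjusted p = 0.185). For PBRM1 the shared value was -0.06 ± 0.07 (adjusted p = 0.473). PBRM1 stood at 0.05 in DND-41 and fell in MOLT-4 (-0.18, adjusted p = 0.0371), a call that was lost without either DND-41 DMSO library, either MOLT-4 DMSO library or the second MOLT-4 ACBI-1 library (adjusted p 0.0516 to 0.38). The difference between lines for PBRM1 was -0.23 (adjusted p = 0.0989), and -0.32 (adjusted p = 0.00797) without the first DND-41 ACBI-1 library. None of the 7 tested genes of the VHL ligase that the degrader recruits passed the test in either direction, with a median log2 fold change of 0.03, and 1 fell without the second MOLT-4 DMSO library.

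The shared response was broad, and its large changes were mostly falls. Of the 11490 genes, 5451 (47.4%) passed the edgeR quasi-likelihood test of the shared effect at an adjusted p under 0.05 and are said below to have risen or fallen. They were 2595 rises (22.6% of genes tested) and 2856 falls (24.9%), so among all calls 52.4% were falls. Among changes of 2-fold or more, 105 genes rose (0.914%) and 563 fell (4.9%), so 84.3% of these were falls. These counts follow the filter on level, with 46 rises and 325 falls at a mean of at least 5 CPM, 253 and 1184 with the filterByExpr function of edgeR and 292 and 1360 with no filter. At 4-fold or more there were 12 rises and 80 falls. The median log2 fold change over all genes tested was 0.01. Levels are scaled to each library, so rises and falls are relative to other genes, and the scaling in part sets this median. With library totals alone as the scaling, 2069 genes rose and 2768 fell. In bulk RNA, fewer cells that carry a transcript and less RNA per cell cannot be told apart.

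**Figure D1:**
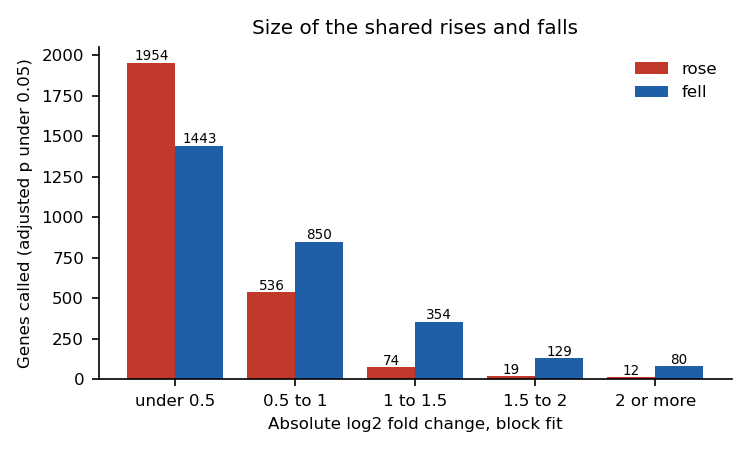
Number of genes that rose or fell with ACBI-1 across both lines (adjusted p under 0.05), by the absolute log2 fold change of the block fit. Rises outnumber falls only below 0.5 (1954 against 1443), and from 0.5 upward falls are the larger group in each size class, with 80 against 12 at 2 or more.

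A block fit can also call a gene that moved in 1 line, so each line's own effect was tested in 1 fit of the 4 group means. Both lines passed in the same direction for 3492 genes (30.4%), 1490 rises (13%) and 2002 falls (17.4%). Of the 5451 genes of the shared test, 3491 passed in both lines, 998 in DND-41 alone, 790 in MOLT-4 alone and 172 in neither. Of the DND-41 falls, 67.2% were also MOLT-4 falls, and 70.4% of the MOLT-4 falls were DND-41 falls. For rises the shares were 54.7% and 59.9%. Passing in both lines with a change of at least 2-fold in each was seen for 64 rises (0.557%) and 362 falls (3.15%). Without both second MOLT-4 libraries 929 rises and 1526 falls passed in both lines. Across the 11490 genes the effects of the 2 lines correlated with Pearson r = 0.715 and a Spearman correlation of 0.654, which describes genes that are not independent replicates.

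**Figure D2:**
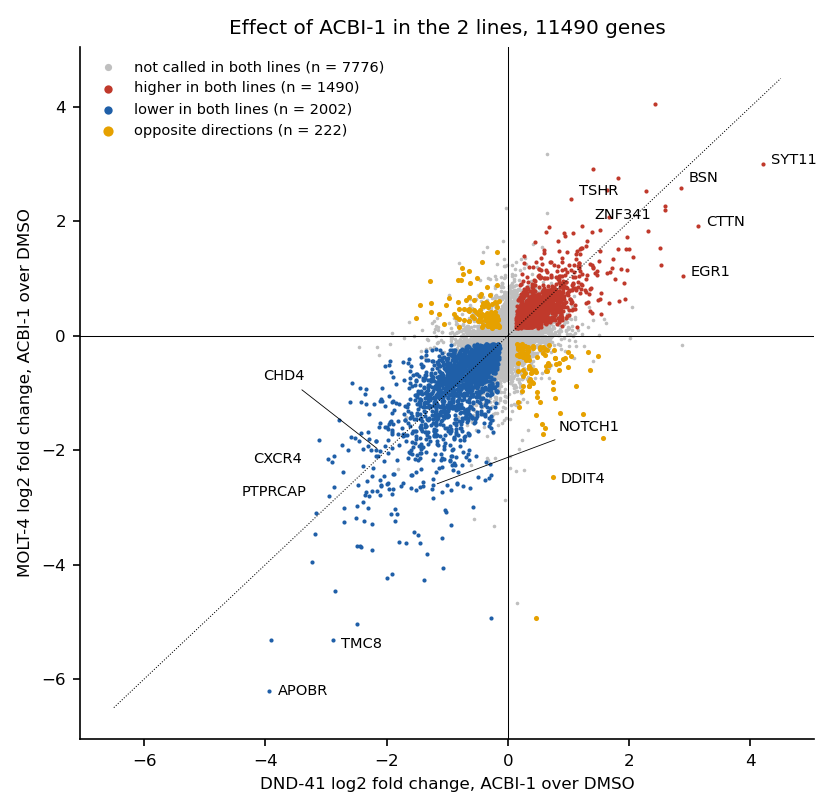
Log2 fold change of each of the 11490 genes in DND-41 (x axis) and MOLT-4 (y axis), with genes called in both lines coloured by direction and the dotted line marking equal effects. Genes lie along the diagonal in the lower left and upper right, with 2002 lower and 1490 higher in both lines, and the 222 genes with opposite directions lie upper left and lower right.

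The falls named first are the 12 largest among genes with a mean of at least 5 CPM in each line, without overlap of treated and DMSO libraries in either line. NOTCH3, one of them, is given with its pathway, and CHD4 is described beside them. PTPRCAP, a transmembrane protein bound to the CD45 phosphatase, was at 363 and 367 CPM in DND-41 with DMSO and at 47.9 and 47.1 CPM with ACBI-1, and in MOLT-4 at 192 and 197 CPM and at 27.8 and 27.9 CPM. No treated library came near a DMSO library, and the log2 fold change was -2.88 ± 0.05 (adjusted p = 6.29e-10), -2.94 in DND-41 and -2.80 in MOLT-4. CHD4, the ATPase of the NuRD remodelling complex, was at 422 and 432 CPM and at 97.3 and 101 CPM in DND-41, and at 546 and 569 CPM and at 140.2 and 136 CPM in MOLT-4. Its levels fell to about the same share in both lines, with a log2 fold change of -2.06 ± 0.04 (adjusted p = 5.53e-09) and a difference between lines of 0.09 (adjusted p = 0.456). RASSF2, a Ras association domain protein, fell from 22.5 and 20.5 CPM to 2.69 and 2.12 CPM in DND-41 and from 15.9 and 13.8 CPM to 1.83 and 1.63 CPM in MOLT-4. That is a log2 fold change of -3.13 ± 0.11 (adjusted p = 1.08e-07).

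WT1, a zinc finger factor mutated in part of T-ALL, fell from 24.3 and 25.5 CPM to 4.18 and 3.5 CPM in DND-41 and from 55.9 and 59.7 CPM to 7.8 and 6.46 CPM in MOLT-4, by 2.88 ± 0.10 on the log2 scale. CD82, a tetraspanin of the cell surface, fell from 145 and 129 CPM to 26.8 and 26.9 CPM and from 140.1 and 134 CPM to 21.2 and 18.7 CPM (log2 fold change -2.56 ± 0.09). CXCR4, the receptor of the chemokine CXCL12, fell from 220.2 and 204 CPM to 28 and 26.4 CPM and from 380.2 and 361 CPM to 83.6 and 82.5 CPM (-2.54 ± 0.14). In these 3 genes the treated libraries stood well apart from the DMSO libraries of their own line. CD48, an adhesion ligand of lymphocytes, fell by 2.60 ± 0.11 and the small GTPase gene RAB37 by 2.82 ± 0.19. FGFR1, a fibroblast growth factor receptor, fell by 3.15 ± 0.25 and SH3TC1 by 2.55 ± 0.21. The neighbouring genes TMC6 and TMC8, which encode a pair of related transmembrane proteins, fell by 3.59 ± 0.26 and 3.70 ± 0.36. TMC8 was at 133 and 128 CPM and at 16.7 and 18.6 CPM in DND-41, and at 86.7 and 96.3 CPM and at 1.94 and 2.66 CPM in MOLT-4. Its fall was larger in MOLT-4 (-5.32) than in DND-41 (-2.88). All of these falls had an adjusted p of at most 2.72e-05.

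Shared rises were fewer at this size, and the 12 largest were taken under the same conditions. BSN, which encodes the presynaptic scaffold bassoon, was at 8.59 and 8.54 CPM in DND-41 with DMSO and at 53.7 and 69.8 CPM with ACBI-1, and in MOLT-4 at 11 and 12.8 CPM and at 72.4 and 70.5 CPM. The treated libraries of both lines lay far above all DMSO libraries, with a log2 fold change of 2.71 ± 0.10 (adjusted p = 1.39e-07), 2.85 in DND-41 and 2.58 in MOLT-4. SYT11, a synaptotagmin of vesicle traffic, was at 1.04 and 0.582 CPM and at 16.1 and 14.2 CPM in DND-41, and at 3.83 and 3.54 CPM and at 29 and 30.5 CPM in MOLT-4. Its log2 fold change was 3.40 ± 0.20 (adjusted p = 1.13e-06), 4.20 in DND-41 and 3.01 in MOLT-4. The synaptic vesicle gene SYP rose by 1.74 ± 0.10, and MAPT, which encodes tau, by 1.12 ± 0.12. These 4 were the rises among 8 tested members of a list of 23 neural and synaptic genes, the other 15 of which did not reach a mean of 1 CPM in both lines. From the same list ENO2 (-0.99 ± 0.08), NLGN2 (-0.90 ± 0.10) and VAMP2 (-0.61 ± 0.08) fell, so the list did not move one way.

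Among the other large rises, ZNF341, a zinc finger transcription factor, was at 8.36 and 9.99 CPM and at 52.6 and 58.2 CPM in DND-41, and at 15.4 and 17.1 CPM and at 75.8 and 73.2 CPM in MOLT-4. The log2 fold change was 2.38 ± 0.10 (adjusted p = 2.16e-07), with no overlap of treated and DMSO libraries. CTTN, which encodes the actin-binding protein cortactin, was at 4.51 and 4.8 CPM and at 40.7 and 41.3 CPM in DND-41, and at 3.36 and 4.58 CPM and at 15.8 and 14.4 CPM in MOLT-4. It rose in both lines and more in DND-41 (3.14) than in MOLT-4 (1.92). EGR1, an immediate early zinc finger factor, was at 34.5 and 36.8 CPM and at 254 and 272 CPM in DND-41, and at 46.1 and 33.5 CPM and at 101 and 63.3 CPM in MOLT-4. The treated libraries again lay above their DMSO libraries in both lines, by a log2 fold change of 2.88 in DND-41 and 1.05 in MOLT-4. TSHR, the thyrotropin receptor, rose by 1.68 ± 0.23, by 1.04 in DND-41 and 2.39 in MOLT-4, to between 127 and 129 CPM in all 4 treated libraries. The orphan receptor gene GPR17 rose by 3.07 ± 0.28 (2.43 in DND-41 and 4.06 in MOLT-4), CCDC121 by 2.43 ± 0.15 and the dispatched family gene DISP2 by 2.08 ± 0.13. LRRC16B rose by 1.86 ± 0.09 and VPS37C, a subunit of the endosomal sorting complex ESCRT-I, by 1.80 ± 0.21. The adjusted p of the 12 largest rises was at most 0.00101.

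**Figure D3:**
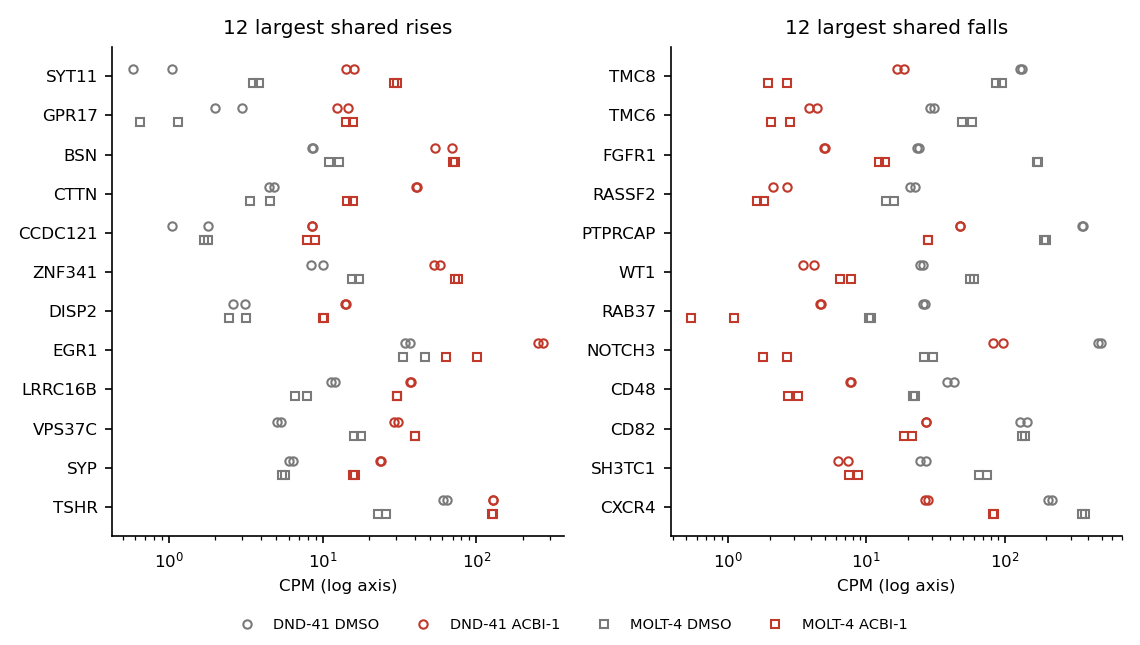
CPM in each of the 8 libraries (log axis) of the 12 largest shared rises (left) and 12 largest shared falls (right) among genes with a mean of at least 5 CPM in each line, circles for DND-41 and squares for MOLT-4, grey for DMSO and red for ACBI-1. In each gene and line the 2 treated libraries stand on 1 side of the 2 DMSO libraries, since the choice of these genes required it.

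Of the 3492 genes that passed in both lines in the same direction, 743 also differed in size between the lines, 408 with the larger effect in MOLT-4 and 335 with the larger effect in DND-41. For the other 2749 the difference did not pass the test. Some changes of 2-fold or more were of nearly equal size in the lines. FLNA, the actin cross-linker filamin A, was at 1781 and 1916 CPM and at 651 and 701 CPM in DND-41, and at 1054 and 1094 CPM and at 417 and 371 CPM in MOLT-4. Its shared log2 fold change was -1.45 ± 0.06. ZBTB2, a zinc finger repressor, was at 72.7 and 68.4 CPM and at 21.7 and 21 CPM, and at 57.6 and 53.2 CPM and at 17.2 and 16.3 CPM, with a shared log2 fold change of -1.73 ± 0.05. The treated levels of both genes were below every DMSO level of their line. Falls of similar equality were seen for RAPGEF5 (-1.43 ± 0.08), RECK (-1.21 ± 0.08), SNX14 (-1.07 ± 0.11) and PKP4 (-1.04 ± 0.04). The corresponding rises were of FGD6 (1.22 ± 0.09), MMAA (1.22 ± 0.07), FANCC (1.16 ± 0.07) and ZNF333 (1.11 ± 0.07). MMAA encodes a mitochondrial protein of vitamin B12 metabolism and FANCC a subunit of the Fanconi anaemia core complex. These genes were picked for their small difference between the lines, which is therefore no finding.

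Signalling from the T-cell receptor runs from the CD3 chains through the kinases LCK and ZAP70 to adaptors, VAV1 and calcium and Ras pathways. Of 38 tested genes of this pathway, 27 fell (71.1%, against 24.9% of all genes) and 5 rose (13.2%, against 22.6%), and the median log2 fold change was -0.74 against 0.01 over all genes. VAV1, the exchange factor downstream of the receptor, was at 74.1 and 69 CPM and at 23.9 and 26.1 CPM in DND-41, and at 159 and 169.8 CPM and at 51.7 and 45.9 CPM in MOLT-4, a log2 fold change of -1.64 ± 0.07 (adjusted p = 2.64e-07). The phosphatase family genes UBASH3A (-1.86 ± 0.05) and UBASH3B (-1.59 ± 0.08), which restrain the receptor, fell beside it, so that activating and restraining members both went down. CD3G, a chain of the receptor complex, went the other way, from 302 and 311 CPM to 974 and 931 CPM in DND-41 and from 188 and 151 CPM to 360.4 and 361 CPM in MOLT-4. That is a log2 fold change of 1.37 ± 0.11 (adjusted p = 7.78e-06). The ubiquitin ligase gene CBLB rose by 0.46 ± 0.06 and the kinase gene PRKCQ by 0.24 ± 0.05. The other 2 rises were small, CD3D (0.25 ± 0.09, adjusted p = 0.0424) and PTPRC, which encodes CD45 (0.21 ± 0.07, adjusted p = 0.035). Of the 5 rises, CD3G and CBLB alone passed in both lines. CD3D stood at 0.03 in MOLT-4 (adjusted p = 0.736) and PTPRC at 0.02 in DND-41 (adjusted p = 0.784). Leaving out any of 5 single libraries took either of these 2 past the threshold, the 4 DND-41 libraries and the first MOLT-4 DMSO library for CD3D, and the second DND-41 DMSO library and the 4 MOLT-4 libraries for PTPRC, with adjusted p between 0.0552 and 0.134. With both second MOLT-4 libraries left out, 27 members of the list fell and 4 rose.

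**Figure D4:**
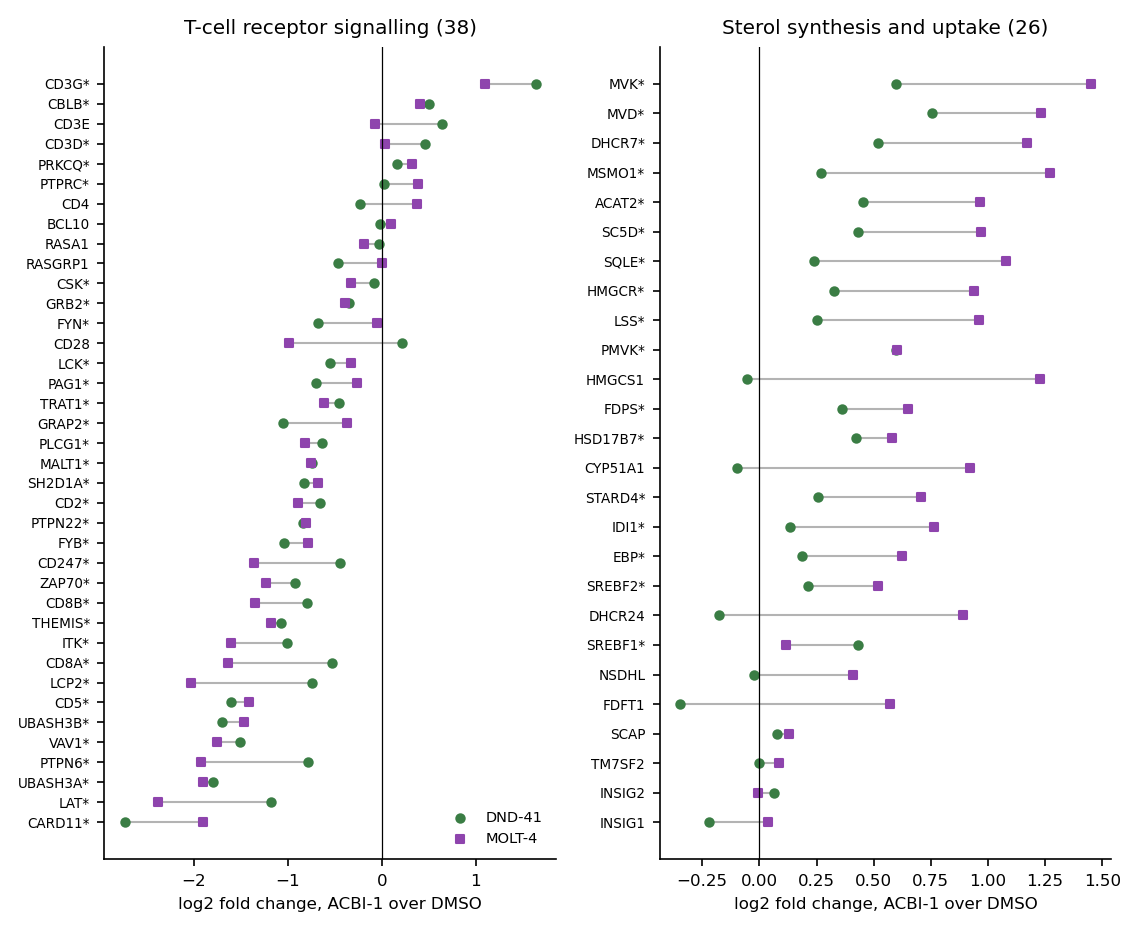
Log2 fold change in DND-41 (circles) and MOLT-4 (squares) of the 38 tested T-cell receptor signalling genes (left) and 26 of the 27 tested sterol genes (right), ordered by the shared log2 fold change, with an asterisk on genes that passed the shared test. Most receptor signalling genes lie left of 0 in both lines with CD3G far to the right, and most sterol genes lie right of 0 with the MOLT-4 value the larger.

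Lists of receptors and adhesion molecules also held more falls than rises, while over all genes tested 24.9% fell and 22.6% rose. Of 26 cytokine and chemokine receptor genes and their JAK and STAT partners, 17 fell (65.4%) and 4 rose (15.4%). The common gamma chain gene IL2RG fell from 649 and 720.2 CPM to 372 and 347 CPM in DND-41 and from 507 and 436 CPM to 246 and 224 CPM in MOLT-4 (-0.97 ± 0.06), and the tumour necrosis factor receptor gene TNFRSF1A fell by 1.43 ± 0.12. Among the rises were IL6ST (0.82 ± 0.09), S1PR1 (0.66 ± 0.09) and JAK2 (0.48 ± 0.08). Of 21 integrin and adhesion genes, 14 fell (66.7%) and ITGA1 alone rose (0.78 ± 0.08). ITGAL, the alpha chain of the integrin LFA-1, fell by 2.54 ± 0.11, FERMT3, which encodes the integrin activator kindlin-3, by 1.18 ± 0.04 and ITGA5 by 0.99 ± 0.05. CORO1A, which encodes the actin regulator coronin 1A, went from 755 and 781 CPM to 279.6 and 287 CPM in DND-41 and from 487 and 502 CPM to 171 and 148 CPM in MOLT-4 (-1.53 ± 0.06). The haematopoietic GTPase gene RAC2 fell by 1.74 ± 0.11. When both second MOLT-4 libraries were dropped, the falls in the receptor and adhesion lists were 15 and 14.

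**Figure D5:**
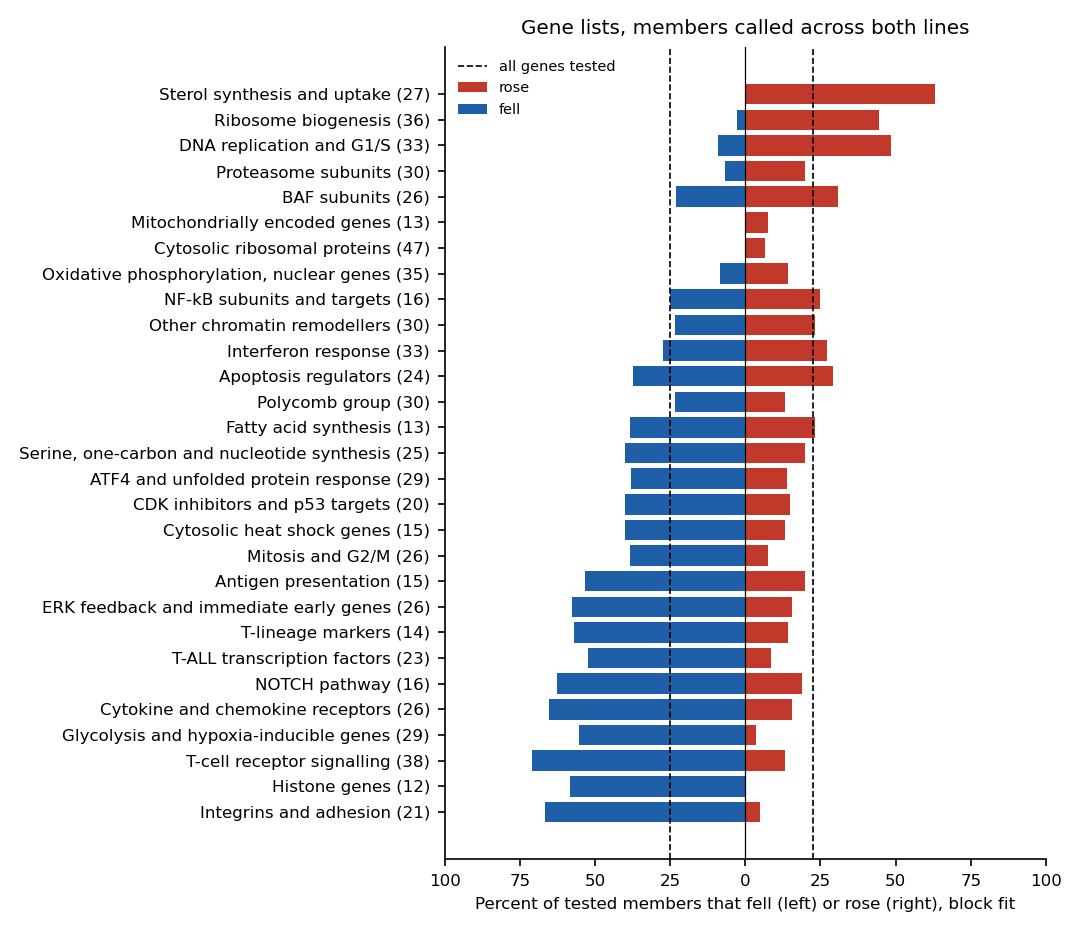
Percent of the tested members of the gene lists shown, each with at least 12 of them, that fell (left) or rose (right) across both lines, with the number tested in brackets and dashed lines at the 24.9% and 22.6% of all genes tested that fell and rose. Adhesion, histone and T-cell receptor lists reach far beyond the left line, and sterol, G1/S and ribosome biogenesis lists beyond the right one.

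NOTCH receptors are cleaved on ligand binding, and the freed intracellular part joins RBPJ and a Mastermind-like coactivator (MAML) on DNA. Of 16 tested genes of this pathway and its known targets, 10 fell (62.5%, against 24.9% of all genes) and 3 rose (18.8%, against 22.6%). By the lines' own tests 6 fell and 2 rose in both lines, and 2 passed in opposite directions. The size of the effect differed between lines for 10 of the 16. NOTCH1 was at 730.2 and 743 CPM and at 284 and 343 CPM in DND-41, and at 987 and 998 CPM and at 166 and 159 CPM in MOLT-4, a log2 fold change of -1.92 ± 0.24 (adjusted p = 0.000142). The fall was larger in MOLT-4 (-2.61) than in DND-41 (-1.23). NOTCH3, itself a target of NOTCH1 in T-ALL, fell from 472 and 499.8 CPM to 82.4 and 96.8 CPM in DND-41 and from 26.2 and 30.2 CPM to 1.78 and 2.66 CPM in MOLT-4 (-2.75 ± 0.19). NOTCH2 (-1.06 ± 0.05) and LZTFL1 (-0.99 ± 0.05) fell as well. On the side of the DNA-binding complex, RBPJ (0.44 ± 0.08) and MAML2 (0.69 ± 0.13) rose, with MAML1 the third rise. MAML1 passed in DND-41 alone and stood at 0.09 in MOLT-4 (adjusted p = 0.274). MYC did not move together in the lines, at 723 and 735 CPM and at 539 and 538 CPM in DND-41 but at 788 and 802 CPM and at 944 and 967 CPM in MOLT-4. Its log2 fold change was -0.44 in DND-41 and 0.26 in MOLT-4.

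Of 23 tested transcription factor genes of the T-ALL and thymocyte network, 12 fell (52.2%) and 2 rose (8.7%, TCF12 and IKZF1). The shares over all genes were 24.9% falls and 22.6% rises. IKZF1 rose in MOLT-4 (0.53) but stood at 0.01 in DND-41 (adjusted p = 0.891). The rises were 1 when the second MOLT-4 DMSO library, either MOLT-4 ACBI-1 library or both second MOLT-4 libraries were left out. FLI1, an ETS factor, was at 137 and 137 CPM and at 59.3 and 53.1 CPM in DND-41, and at 103 and 97.6 CPM and at 41.7 and 43.2 CPM in MOLT-4, a log2 fold change of -1.26 ± 0.05 (adjusted p = 1.86e-07). The repressor gene GFI1 fell by 1.28 ± 0.08, and BCL11B, a factor that commits cells to the T lineage, by 1.01 ± 0.07. TCF12, which encodes an E protein, rose by 0.48 ± 0.06. RUNX1 showed no call, at -0.09 ± 0.06 (adjusted p = 0.196). MYB was at 268 and 271 CPM and at 254 and 231 CPM in DND-41, and at 731 and 703 CPM and at 1096 and 1089 CPM in MOLT-4, so that it rose in MOLT-4 by 0.61 and stood at -0.15 in DND-41. That DND-41 value had an adjusted p of 0.0477, which moved past the threshold when either DND-41 DMSO library, the second DND-41 ACBI-1 library or either MOLT-4 ACBI-1 library was left out (adjusted p 0.0628 to 0.329). Of 26 immediate early and ERK feedback genes, 15 fell (57.7%) and 4 rose (15.4%), but without both second MOLT-4 libraries 10 fell and 5 rose. JUN fell by 1.02 ± 0.10, JUND by 0.68 ± 0.06 and the phosphatase gene DUSP2 by 1.31 ± 0.07. EGR1 and EGR2 (2.39 ± 0.18), ZFP36L1 (0.76 ± 0.08) and BTG2 (0.50 ± 0.09) were the rises.

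Among other chromatin genes, 8 of 26 BAF subunit genes rose (30.8%, against 22.6% of all genes) and 6 fell (23.1%, against 24.9%). GLTSCR1L, a subunit of the non-canonical GBAF form, was at 35.1 and 37.7 CPM and at 83 and 85.4 CPM in DND-41, and at 6.56 and 8.12 CPM and at 21.3 and 21.3 CPM in MOLT-4, a log2 fold change of 1.34 ± 0.08 (adjusted p = 1.59e-06). ARID1A, the large subunit of canonical BAF, rose by 0.34 ± 0.05 and the core subunit gene SMARCC2 by 0.23 ± 0.04. DPF3 fell by 1.66 ± 0.12, BCL7A by 0.59 ± 0.07 and BCL7C by 0.52 ± 0.06. Counted with the first MOLT-4 libraries alone in that line, 5 BAF genes rose and 5 fell, and 5 rose when the first DND-41 DMSO library or the second MOLT-4 DMSO library was left out. Of 30 genes of other remodellers, 7 rose and 7 fell (23.3% each), and without both second MOLT-4 libraries 4 rose and 7 fell. Over all genes the shares of rises and falls were close to these, at 22.6% and 24.9%. Next to CHD4, the NuRD subunit genes GATAD2A (-0.56 ± 0.06) and HDAC1 (-0.35 ± 0.04) fell, while CHD2 rose by 0.63 ± 0.04. Among 30 polycomb genes the calls were no more frequent than among all genes, with 7 falls (23.3%, against 24.9%) and 4 rises (13.3%, against 22.6%). BCOR (-0.95 ± 0.11) and PHF19 (-0.68 ± 0.06) were among the falls, and PCGF5 (0.57 ± 0.07) and EZH1 (0.41 ± 0.05) among the rises. Of 12 tested histone genes 7 fell (58.3%, against 24.9% of all genes) and none rose. The list held 21 genes, and those not tested all had HIST1 or HIST2 names, among them HIST1H1E, HIST1H3B and HIST1H4C. The counts do not speak for these untested genes. The linker histone gene H1F0 fell from 266 and 287 CPM to 124 and 117 CPM in DND-41 and from 86.2 and 79.8 CPM to 26.8 and 24.4 CPM in MOLT-4 (-1.43 ± 0.10), H1FX by 0.78 ± 0.08 and the macroH2A gene H2AFY by 0.48 ± 0.04. Without both second MOLT-4 libraries 5 histone genes fell, and 1 rose without the first MOLT-4 DMSO library.

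Sterol synthesis was the list with the highest share of rises. Cells make cholesterol from acetyl-CoA through mevalonate, and the genes are switched on together by the factor SREBF2. Of 27 tested genes of synthesis and uptake, 17 rose (63%, against 22.6% of all genes) and none fell. The median log2 fold change of the list was 0.49. MVD, mevalonate diphosphate decarboxylase, was at 93.2 and 90.1 CPM and at 151 and 158 CPM in DND-41, and at 58.6 and 64 CPM and at 139.6 and 148 CPM in MOLT-4, a log2 fold change of 0.99 ± 0.09 (adjusted p = 1.7e-05). PMVK, phosphomevalonate kinase, was at 22.4 and 23 CPM and at 36.4 and 32.3 CPM, and at 29.8 and 34.3 CPM and at 50.4 and 46.8 CPM (0.60 ± 0.07). FDPS, farnesyl diphosphate synthase, rose by 0.50 ± 0.06. Both treated libraries of each line lay above its DMSO libraries for MVD and PMVK. The size of the effect differed between lines for 22 of the 27 genes, and 22 rose with none falling in MOLT-4, against 16 rising and 4 falling in DND-41. With both second MOLT-4 libraries left out, 16 of the 27 rose and none fell.

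Genes of fatty acid synthesis did not go with the sterol genes. Of 13 tested, none rose in DND-41 by its own test. In the shared test 5 fell (38.5%, against 24.9% of all genes), among them FADS1 (-1.07 ± 0.21), ACSS2 (-0.83 ± 0.13) and ELOVL1 (-0.62 ± 0.06). A further 3 rose (23.1%, near the 22.6% of all genes), ACACA, ACLY and FADS2, with DND-41 adjusted p of 0.227, 0.382 and 0.344. None of them rose without both second MOLT-4 libraries or without either MOLT-4 DMSO library, and 1 without either MOLT-4 ACBI-1 library. Of 29 glycolysis and hypoxia-inducible genes, 16 fell (55.2%, against 24.9% of all genes) and PFKFB4 alone rose (1.37 ± 0.15). Hexokinase gene HK1 went from 94.7 and 103 CPM to 34.6 and 34.3 CPM in DND-41 and from 88.8 and 89.2 CPM to 46.8 and 40.4 CPM in MOLT-4 (-1.27 ± 0.10). The phosphofructokinase gene PFKL fell by 0.67 ± 0.07. In the list of oxidative phosphorylation 14.3% rose and 8.57% fell, against 22.6% and 24.9% of all genes. Nuclear genes of oxidative phosphorylation mostly did not pass the test, with 5 rises and 3 falls among 35, and 3 rises when either DND-41 DMSO library or the first DND-41 ACBI-1 library was left out. Of 25 genes of serine, one-carbon, nucleotide and polyamine synthesis, 10 fell (40%, against 24.9% of all genes) and 5 rose (20%, against 22.6%), with IMPDH1 (-1.38 ± 0.07) and ODC1 (-0.84 ± 0.04) down and GART (0.41 ± 0.04) up, and 3 rose without any 1 of the MOLT-4 libraries. A second glycolysis gene rose without the second DND-41 DMSO library or the first DND-41 ACBI-1 library.

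The cell cycle lists split. Of 33 DNA replication and G1/S genes, 16 rose (48.5%) and 3 fell (9.09%), with small effects and a median of 0.12. Over all genes 22.6% rose and 24.9% fell. By the lines' own tests 9 of the 33 rose and 3 fell in both lines. With library totals alone as the scaling, 11 rose and 3 fell in the shared test. RRM2, a subunit of ribonucleotide reductase, was at 268 and 277 CPM and at 354 and 348 CPM in DND-41, and at 304 and 302 CPM and at 399 and 402 CPM in MOLT-4 (0.38 ± 0.04). E2F3 (0.33 ± 0.04) and MCM4 (0.27 ± 0.04) rose likewise, and the 3 falls were UHRF1 (-0.77 ± 0.04), TK1 (-0.48 ± 0.04) and TYMS (-0.25 ± 0.04). When both second MOLT-4 libraries were dropped, 10 of these genes rose and 4 fell. Of 26 mitosis and G2/M genes, 10 fell (38.5%) and 2 rose (7.69%, CDC25A and BUB1), with 1 rise without the first DND-41 DMSO or the first MOLT-4 ACBI-1 library. By the lines' own tests 8 of the 26 fell and 1 rose in both lines. BUB1 passed in DND-41 alone and stood at 0.11 in MOLT-4 (adjusted p = 0.103), with a difference between lines of -0.40 that passed the test. The phosphatase gene CDC25B was at 337 and 342 CPM and at 231 and 232 CPM in DND-41, and at 424 and 429.8 CPM and at 297 and 292 CPM in MOLT-4 (-0.54 ± 0.04), and PLK1 (-0.39 ± 0.04) and CDC20 (-0.37 ± 0.05) fell with it. Of 36 ribosome biogenesis genes, 16 rose (44.4%) and RRN3, a factor of RNA polymerase I initiation, fell (-0.30 ± 0.05). RRP12 rose by 0.46 ± 0.05, the RNA polymerase I subunit gene POLR1E by 0.44 ± 0.05 and NOP14 by 0.27 ± 0.04. Counted with the first MOLT-4 libraries alone in that line, 11 of the 36 rose, and a second gene fell without the first DND-41 DMSO library. Of 47 cytosolic ribosomal protein genes 3 rose (RPL26, RPL27 and RPS12) and none fell, and leaving out single libraries moved the rises to between 1 (either DND-41 DMSO library, the first DND-41 ACBI-1 or the first MOLT-4 DMSO library) and 8 (the second MOLT-4 DMSO library), with 2 falls without the first DND-41 ACBI-1 library. The rises made up 6.38% of this list, against 22.6% of all genes, while 24.9% of all genes fell. By the lines' own tests RPL27 alone rose in both lines. RPL26 stood at 0.23 in MOLT-4 (adjusted p = 0.0574) and RPS12 at 0.14 (adjusted p = 0.104). The counts of ribosomal protein genes are limited further in that reads of these genes can be shared with their many pseudogenes.

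Stress, death and immune lists held calls in both directions. In the shared test 11 of 29 ATF4 and unfolded protein response genes fell (37.9%, against 24.9% of all genes). A further 4 rose (13.8%, against 22.6%). By the lines' own tests 11 fell in both lines and none rose in both. The rises were of ASNS, CHAC1, CEBPB and ERN1, and their count was 2 when the second DND-41 ACBI-1 library or any MOLT-4 library was left out. HSPA5, the chaperone BiP of the endoplasmic reticulum, went from 198 and 203 CPM to 123 and 125 CPM in DND-41 and from 570.3 and 588 CPM to 207 and 230.3 CPM in MOLT-4 (-1.05 ± 0.13), and TRIB3 (-0.92 ± 0.11) and CANX (-0.42 ± 0.05) fell. Of 24 apoptosis regulators 9 fell (37.5%, against 24.9% of all genes) and 7 rose (29.2%, against 22.6%), with 4 rises when any 1 of the DND-41 libraries was left out. BCL2, which protects from apoptosis, fell by 0.92 ± 0.07, while BCL2L11, which encodes the death-promoting protein BIM, rose by 0.73 ± 0.05. Against these, the pro-apoptotic gene PMAIP1 (-0.71 ± 0.07) fell and the protective genes CFLAR (0.84 ± 0.09) and BIRC2 (0.59 ± 0.07) rose. Of 33 interferon response genes 9 rose and 9 fell (27.3% each), near the 22.6% and 24.9% of all genes. OAS1 (1.34 ± 0.12) and IRF1 (0.52 ± 0.05) were up and IFITM1 (-1.84 ± 0.09) was down. In antigen presentation 8 of 15 genes fell (53.3%, against 24.9% of all genes), and the peptide transporter genes TAP2 (0.89 ± 0.06) and TAP1 (0.48 ± 0.07) with TAPBP (0.33 ± 0.05) were the 3 rises. The 3 tested B-lineage markers, which these T-ALL lines also transcribe, all fell, IGLL1 by 1.32 ± 0.12, BLK by 0.81 ± 0.05 and CD79A by 0.73 ± 0.06. CD79A was at 1569 and 1593 CPM and at 938 and 988 CPM in DND-41, and at 7.13 and 6.42 CPM and at 3.61 and 4.4 CPM in MOLT-4.

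The shared changes were also counted by gene family and by level, the level being in part set by the filter at 1 CPM. Of the 407 tested genes named ZNF with a number, most of which encode zinc finger factors, 118 rose (29%, against 22.6% of all genes) and 57 fell (14%, against 24.9%), a family picked after its values were seen. In both lines 57 of them rose (14%) and 42 fell (10.3%), against 13% and 17.4% of all genes, so the share of rises in both lines was near that of all genes. Genes with a geometric mean over the lines under 5 CPM numbered 1783, and 4.04% of these rose and 12.3% fell in both lines. Among the 4884 genes between 20 and 100 CPM the shares were 17% and 17.4%. Changes of 2-fold or more were commoner in the low class (2.52% rises and 9.2% falls) than in the higher one (0.328% and 3.24%). Falls outnumbered rises at this size in each of the 4 classes of level.

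Promoter composition was compared over protein-coding genes alone, of which 8497 of 10105 (84.1%) matched a RefSeq promoter of 300 bases (250 before and 50 after the start). A ratio of observed over expected CpG under 0.6, which marks promoters outside CpG islands, was found in 13.9% of all these promoters, in 11.1% of the 1184 of genes that rose in both lines and in 20.4% of the 1533 of genes that fell in both lines. The ETS motif CCGGAAG stood in 22.1%, 19% and 16.2% of these 3 sets. For the NRF1 motif, which BSN holds, the shares were 2.73%, 3.97% and 1.11%. The GC box, which CD82 holds, stood in 71.5%, 70.3% and 75.5%, and RUNX sites in 9.07%, 8.36% and 8.81%. Of the 17 sterol genes that rose, 14 had a promoter in the table. CCAAT stood in 11 of these 14, against 37.8% of all protein-coding promoters, the GC box in 14, and the sterol regulatory element TCACNCCAC in 1, against 1.17%.

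Not every response was shared. In 222 genes (1.93%) both lines passed in opposite directions, 131 without both second MOLT-4 libraries, and the size of the effect differed between lines in 2179 genes (19%), 1077 without both second MOLT-4 libraries and 1221 at a threshold of 0.01. DDIT4, an inhibitor of mTOR signalling, was at 20.7 and 20.5 CPM and at 36.5 and 32.4 CPM in DND-41, but at 20.2 and 20.9 CPM and at 3.56 and 3.91 CPM in MOLT-4. From nearly the same DMSO level it rose by 0.74 in the first line and fell by 2.46 in the second. AKNA was at 354 and 367 CPM and at 591 and 647 CPM in DND-41, and at 519 and 541 CPM and at 264 and 235 CPM in MOLT-4 (0.78 and -1.09). PLAC8 (0.74 and -0.81), CYTH1 (0.64 and -0.61) and SLC16A6 (0.62 and -0.62) rose in DND-41 and fell in MOLT-4 in the same way. DENND2D was at 243 and 237 CPM and at 146 and 142 CPM in DND-41, and at 129.8 and 130.5 CPM and at 271 and 281 CPM in MOLT-4, so it fell by 0.74 and rose by 1.08. RDH10 (-0.78 and 0.97), a retinol dehydrogenase, and C6orf223 (-0.97 and 0.67) followed that pattern.

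Among genes with a mean under 5 CPM in either line, the largest shared changes were falls. APOBR, a receptor for apolipoprotein B48, was at 9.12 and 9.8 CPM and at 0.576 and 0.645 CPM in DND-41, and at 5.82 and 6.87 CPM and at 0.0524 and 0.109 CPM in MOLT-4, where the treated libraries were under the level of 3 counts. Its fitted log2 fold change was -4.48 ± 0.27 (adjusted p = 1.48e-06). MCAM, an adhesion molecule, was at 5.13 and 4.95 CPM and at 0.336 and 0.323 CPM, and at 2.73 and 2.04 CPM and at 0.0524 and 0.0543 CPM (-4.22 ± 0.25). The adhesion receptor gene EMR2 fell by 3.40 ± 0.19, RAP1GAP2 by 3.32 ± 0.20 and the chemokine receptor gene CCR9 by 3.12 ± 0.33. FGFRL1 carried a shared value of -2.95 ± 0.70 (adjusted p = 0.00636) that came from 1 line. It was at 0.855 and 1.26 CPM and at 1.1 and 1.24 CPM in DND-41 and at 20.7 and 20.5 CPM and at 0.681 and 0.923 CPM in MOLT-4, with log2 fold changes of 0.15 and -4.67. Without both second MOLT-4 libraries its shared value was -2.13 (adjusted p = 0.0906).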

How the data were processed

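Total RNA was sequenced on a DNBSEQ instrument with strand-specific paired-end reads of 100 bp, per the labels' protocols. The authors deposited a table of counts per gene for each line (counts are whole numbers per gene and library) with their own log2 fold changes and p-values, per the file headers. The submitters' processing notes name STAR 2.5.2a, featureCounts and DESeq2 1.12.4 with hg19. The gene annotation and strand setting of that counting: not given in the sources used here. The base mean column of the deposited tables, treated as a score, and the Wald statistic, also a score, were not used for any result.

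Both tables were joined by gene ID. Counts were tested with edgeR 4.0.16 (quasi-likelihood F test, TMM scaling, R 4.3.3) on genes with a mean of at least 1 CPM in both lines, with Benjamini-Hochberg adjustment over all 11490 genes and a threshold of 0.05. The shared effect came from line and treatment as terms (5 residual degrees of freedom), and each line's effect and their difference, MOLT-4 minus DND-41, from 1 fit of 4 group means (4 residual degrees of freedom). A log2 fold change is ACBI-1 over DMSO, and its standard error is its size divided by the square root of F. The CPM values given for genes and marker sums are over the library total times its TMM factor. The filter at 1 CPM, with its edge genes CD248 and CCDC102B, used the library total alone. Counts are used without strand knowledge, so reads of overlapping and antisense genes such as the neighbours TMC6 and TMC8 may be shared. Simulated data with 200 changed genes among 11490 gave recovery by the shared test of 82% at a log2 change of 0.5 and 98% at 1, and in both lines of 65% and 92%, with 3.23% of calls false. Far more genes were called in the data than were changed in that simulation. Each changed gene there had the same fold in both lines and the spread of the fit of 4 group means. The recovery therefore does not cover genes whose effect differs between the lines.

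The members, the 37 gene lists and the motifs were chosen with earlier results of these data known. Genes were named by rule, namely the targets and 4 T-ALL regulators, the 12 largest rises and falls without overlap in either line among genes with a mean of at least 5 CPM in each line, up to 3 rises and 3 falls per list by adjusted p with the members of counts of 5 or fewer, the 6 rises and 6 falls most equal in the lines, 8 genes with opposite directions and 6 genes of low level. Alternatives were other scalings, filters and thresholds, DESeq2 1.42.0, the replicate number as a block and leaving out each library. Leaving out both second MOLT-4 libraries and the mitochondrial genes was added after seeing the data. Gene lists have no test and are described by counts beside those over all genes. Matching promoters over all genes tested reached 77.9%, too few for a comparison, so protein-coding genes by GENCODE 29 type were used, a restriction chosen after seeing the match rate. The 2-fold falls matched at 74.9% and were not described. In the authors' deposited table the sign of the log2 fold change is that of ACBI-1 over DMSO for DND-41 (3788 of 3788 genes called in both fits) and the opposite for MOLT-4 (3567 of 3567), so all directions here come from the counts. Results on some named genes and on 1 gene list are not reported here.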

Additional observations from a re-analysis of the deposited data

Results flagged for a closer look

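Several named genes responded in the same direction in both lines but with a different size, by the test of the difference itself (edgeR, MOLT-4 minus DND-41, on the log2 scale). Among shared falls, the difference was -2.43 ± 0.16 for TMC8 (adjusted p = 5.64e-09), -1.38 ± 0.10 for NOTCH1 (adjusted p = 2.9e-08) and -1.23 ± 0.20 for NOTCH3 (adjusted p = 0.000186), all larger falls in MOLT-4. CXCR4 had a difference of 0.81 ± 0.09 (adjusted p = 2.38e-06), the larger fall being in DND-41. Among shared rises, EGR1 (-1.83 ± 0.21), CTTN (-1.21 ± 0.19), SYT11 (-1.19 ± 0.28) and CD3G (-0.54 ± 0.11) rose more in DND-41. Rises were larger in MOLT-4 for GPR17 (1.63 ± 0.33), TSHR (1.35 ± 0.09) and MVD (0.47 ± 0.09). The adjusted p of these 7 differences was at most 0.00476. For SYT11 the difference was -0.84 (adjusted p = 0.0823) without the second DND-41 DMSO library, and for GPR17 it was 1.34 (adjusted p = 0.0507) without both second MOLT-4 libraries.

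Other genes moved in opposite directions, or in 1 line. The difference was 1.82 ± 0.07 for DENND2D, 1.76 ± 0.13 for RDH10 and 1.63 ± 0.16 for C6orf223, all higher in MOLT-4 and lower in DND-41. In the other direction it was -3.20 ± 0.15 for DDIT4, -1.87 ± 0.09 for AKNA, -1.54 ± 0.15 for PLAC8, -1.26 ± 0.08 for CYTH1 and -1.24 ± 0.15 for SLC16A6. MYC differed by 0.70 ± 0.08 and MYB by 0.76 ± 0.09, and FGFRL1, which fell in MOLT-4, by -4.83 ± 0.38. The adjusted p of these 11 differences was at most 9.25e-06. SMARCA2 differed by 0.33 ± 0.11 (adjusted p = 0.0401), which did not pass when the second DND-41 DMSO, the first DND-41 ACBI-1, the first MOLT-4 DMSO or either MOLT-4 ACBI-1 library was left out (adjusted p 0.072 to 0.189), nor without both second MOLT-4 libraries (adjusted p = 0.15).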

How the results depend on the processing

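Counts of shared rises and falls kept the order of more falls than rises under all alternatives run, from 1627 rises at an adjusted p threshold of 0.01 upward. At that threshold 978 genes rose in both lines, 116 moved in opposite directions and 1221 differed between lines. Changes of 2-fold or more numbered 292 rises and 1360 falls with no filter, 253 and 1184 with edgeR's filterByExpr, and 46 and 325 at a mean of at least 5 CPM. DESeq2 gave 147 genes with opposite directions. With library size alone the shared test called 2069 rises and 2768 falls. Leaving out both second MOLT-4 libraries gave 1917 rises and 2406 falls, with 929 rises and 1526 falls in both lines, 131 opposite genes and 1077 differences. Leaving out 1 library at a time gave 2128 to 2368 rises and 2532 to 2658 falls, 100 to 114 and 526 to 585 of 2-fold or more, 1158 to 1463 rises and 1726 to 1973 falls in both lines, 158 to 253 opposite genes and 1484 to 2388 differences. The cause of these shifts was not tested, apart from the smaller or larger number of genes that a filter admits. With each line fitted alone no difference between lines could be computed.

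Libraries share replicate numbers across treatments. Across genes, deviations of the first DMSO and first ACBI-1 library from their group means correlated at 0.12 in DND-41 and 0.17 in MOLT-4. With 2 libraries a group the second pair mirrors the first and adds no further value. On these values the number was not taken as a pairing. With the replicate number as a block there were 2157 rises and 2498 falls, 107 and 556 of 2-fold or more, 1657 rises and 2147 falls in both lines, 283 opposite genes and 2718 differences. Of the 5451 genes called in the shared test, 4621 were also called with that block.

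Of 4172 values of named genes under alternatives, 4108 kept their direction and side of the threshold. SMARCA2 turned to 0.01 without the second DND-41 DMSO library and to 0.02 without the first DND-41 ACBI-1 library, and PBRM1 to 0.00 without both second MOLT-4 libraries, none of them called. PBRM1 in DND-41 was -0.05 without the second DND-41 ACBI-1 library, and its difference between lines passed with library size alone (-0.33, adjusted p = 0.0496) and with the replicate block (-0.23, adjusted p = 0.0284). The fall of PBRM1 in MOLT-4 did not pass with DESeq2 (adjusted p = 0.0642) or with edgeR after filterByExpr (adjusted p = 0.0675). CHD4's difference between lines was -0.00 with library size alone, and FGFRL1 in DND-41 was -0.10 without the first DND-41 DMSO library and 0.46 without the second. BSN's difference passed the threshold without the first DND-41 ACBI-1 library (-0.44, adjusted p = 0.0194). CD3D (adjusted p = 0.0879) and PTPRC (adjusted p = 0.0904) were not called with the replicate block. With 2 libraries a group, depth limits genes under 3 counts, about 0.15 CPM.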
